A study of Mus musculus with 36 samples.

Results

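Axon guidance ligands and receptors were followed in mouse nephron progenitor cells (NPCs) across doses of CHIR and after removal of β-catenin or of the Tcf/Lef factors. The members are the genes whose symbols mark them as a class 3 to 7 semaphorin, a plexin, a neuropilin, a netrin, a Slit, a Robo receptor, an ephrin or an Eph receptor, and whose mean reached 10 normalized counts in at least 1 of 3 expression tables. Of 64 genes with such symbols, 52 passed, out of 30125 genes in the tables. They are 17 semaphorins, 8 plexins, 2 neuropilins, 3 Slits, 2 Robo receptors, 2 netrins, 8 ephrins and 10 Eph receptors. The other 12 genes (*Epha5*, *Epha6*, *Epha8*, *Epha10*, *Ntn4*, *Ntn5*, *Plxna4os2*, *Plxnb3*, *Robo3*, *Sema3e*, *Sema6b* and *Sema7a*) stayed below that level in all 3 tables. A member was tested in a table where its own mean reached 10, which held for 51 members in the wild-type table, 50 in the β-catenin table and 52 in the Tcf/Lef table. *Sema5b* was not tested in the first, and *Sema4f* and *Sema6c* were not tested in the second. A gene at low level in most groups can pass this filter through the group where it is high.

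The study cultured primary NPCs from embryonic mouse kidneys, enriched by magnetic depletion of other cells, in nephron progenitor expansion medium (NPEM). All cultures were bulk RNA-seq samples, and the amount of Wnt pathway activation was set by the GSK3β inhibitor CHIR99021 (CHIR). Wild Type NPCs were given no (0 µM), low (1.25 µM) or high (5 µM) CHIR, with 3 libraries each. The β-catenin table holds 8 groups of 2 libraries, all in low or high CHIR. Cas9-eGFP NPCs received guide RNAs against *Ctnnb1*, which encodes β-catenin, or a guide against GFP as the control. B-catenin_c_c NPCs, in which *Ctnnb1* is a conditional allele, received Cre mRNA (labelled Cre-pos) or no Cre (Cre-neg). The Tcf/Lef table holds Cas9-eGFP NPCs with guides against *Tcf7*, *Tcf7l1*, *Tcf7l2* and *Lef1* together (quadruple knockout, QKO), with 2 libraries in low and 3 in high CHIR, beside GFP guide controls with 3 libraries at each dose. In both knockout experiments the transfected cells were sorted by a co-delivered mCherry mRNA, so the sort marks uptake and not loss of the gene, and the genes were removed in low CHIR before the dose was applied. Nothing in the labels says whether replicates came from separate litters or cultures, so p-values measure the spread between these libraries only.

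These families were named for the steering of growing axons, but they act in many tissues by drawing cells together or keeping them apart. Secreted Slits bind Robo receptors, class 3 semaphorins bind neuropilin and plexin complexes (*Sema3e* is a ligand of plexin D1 itself), and ephrins are bound to the membrane and meet Eph receptors on neighbouring cells, with signals passing into both cells. In the kidney, Slit2 and Robo2 restrict where the ureteric bud forms, and Robo2 is made by the nephrogenic mesenchyme. Tcf/Lef proteins bind DNA with β-catenin as their partner and are the usual route by which Wnt signals reach genes.

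The promoters of 5 members that carry the results below are shown because the comparisons test CHIR, β-catenin and Tcf/Lef factors. Each window runs from 250 bases before to 50 bases after a RefSeq gene start and is written 5′ to 3′ on the gene's strand, from build GRCm38.p6. Capitals mark a match to CTTTGAA, the form CTTTGAT, the form CTTTGTA or the form CTTTGTT, letters that Tcf/Lef proteins are known to bind, on either strand.
*Sema3c* (chr5:17574566-17574865, plus strand): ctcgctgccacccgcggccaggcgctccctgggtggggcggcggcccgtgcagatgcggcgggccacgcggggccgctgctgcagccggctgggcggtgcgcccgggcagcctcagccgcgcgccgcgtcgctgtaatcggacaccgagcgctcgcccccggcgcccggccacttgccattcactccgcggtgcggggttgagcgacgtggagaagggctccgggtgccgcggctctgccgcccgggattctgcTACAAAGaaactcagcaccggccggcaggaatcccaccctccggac
*Plxnb1* (chr9:109095186-109095485, plus strand): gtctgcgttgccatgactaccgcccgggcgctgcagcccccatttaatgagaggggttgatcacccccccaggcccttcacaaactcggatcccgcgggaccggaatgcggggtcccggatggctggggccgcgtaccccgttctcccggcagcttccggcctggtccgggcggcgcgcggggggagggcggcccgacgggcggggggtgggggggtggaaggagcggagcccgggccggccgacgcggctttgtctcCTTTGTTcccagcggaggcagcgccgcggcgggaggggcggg
*Robo2* (chr16:74411776-74412075, minus strand): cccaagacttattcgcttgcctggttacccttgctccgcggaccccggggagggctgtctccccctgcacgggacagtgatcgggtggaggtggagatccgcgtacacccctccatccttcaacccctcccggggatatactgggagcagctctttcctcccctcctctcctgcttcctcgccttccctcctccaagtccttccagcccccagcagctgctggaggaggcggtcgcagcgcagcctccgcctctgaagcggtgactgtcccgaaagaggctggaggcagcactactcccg
*Epha4* (chr1:77515039-77515338, minus strand): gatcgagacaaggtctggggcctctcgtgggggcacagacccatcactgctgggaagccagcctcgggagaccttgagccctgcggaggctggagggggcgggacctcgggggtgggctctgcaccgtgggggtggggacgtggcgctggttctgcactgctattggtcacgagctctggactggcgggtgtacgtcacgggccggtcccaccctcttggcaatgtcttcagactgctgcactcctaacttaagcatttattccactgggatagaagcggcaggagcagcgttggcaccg
*Slit2* (chr5:47982905-47983204, plus strand): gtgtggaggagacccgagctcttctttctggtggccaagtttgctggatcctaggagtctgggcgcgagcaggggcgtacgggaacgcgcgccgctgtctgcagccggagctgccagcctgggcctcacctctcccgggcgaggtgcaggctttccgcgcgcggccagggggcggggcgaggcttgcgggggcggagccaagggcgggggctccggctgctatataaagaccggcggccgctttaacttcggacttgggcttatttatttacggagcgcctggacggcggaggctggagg
The *Sema3c* window holds TACAAAG, the reverse complement of CTTTGTA, and the *Plxnb1* window holds CTTTGTT on the written strand. None of the 4 motifs is in the windows of *Robo2*, *Epha4* and *Slit2*, which says only that these letters are not in these 300 bases. Over 59 windows of the 44 members that the RefSeq table held, 7 (11.9%) contained a match, in *Nrp2*, *Sema3c*, *Sema3d*, *Sema6d*, *Plxnb1*, *Efna4* and *Epha2*, against 5544 of 32851 windows (16.9%) of all genes. No window was used for *Plxna1*, *Plxna4*, *Sema3b*, *Sema3f*, *Sema6a*, *Efnb3*, *Ntn1* and *Slit1*.

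The 36 libraries held 13089780 to 76071568 reads on genes. High CHIR replicate 3 of the wild-type series stood apart. Its mean correlation with the other libraries of its group was 0.916, against 0.941 to 0.981 for all other libraries, and it lay outside the range of the other 2 high CHIR replicates by more than 2-fold for 20 of the 52 members. *Ctnnb1* held 1040 to 1652 normalized counts with *Ctnnb1* guides and 2521 to 3397 with the GFP guide in low CHIR, and 1270 to 1630 against 2632 to 2701 in high CHIR. In low CHIR *Ctnnb1* held 2451 to 3085 in the libraries labelled Cre-pos and 3097 to 3880 in Cre-neg. At high CHIR it was not lower in Cre-pos (2254 to 2583, against 2207 to 2423 in Cre-neg). An exon deletion need not lower the transcript, which was not tested here. Of the Tcf/Lef genes in high CHIR, *Lef1* held 255 to 513 counts in QKO and 1144 to 2743 in the control, and *Tcf7* 110 to 180 against 268 to 535, while the ranges of *Tcf7l1* and *Tcf7l2* overlapped. Summed counts of 9 NPC markers (*Six2*, *Cited1* and others) were 16441 to 22869 in wild-type low CHIR and 3571 to 7338 in high CHIR. The sum of 6 markers of induced nephrons (*Wnt4*, *Lef1* and others) was 2979 to 5776 and 24388 to 33698. Among markers of cells that the cultures could also hold, the sum of 9 stroma markers was 19206 to 25325 in low and 4652 to 13578 in high CHIR.

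The A class ephrins *Efna5*, *Efna1* and *Efna4* were the most abundant members per length of transcript. In wild-type NPCs in low CHIR, *Efna5* held 930 normalized counts per kb of exon (872 to 1032 over 3 libraries), *Efna1* 491 (391 to 684) and *Efna4* 473 (392 to 523). The ranges of *Efna1* and *Efna4* overlapped, so their order is not resolved, while that of *Efna5* lay above both. *Efnb1*, a B class ephrin with a transmembrane domain, came next at 361 counts per kb (345 to 375), and its range was above that of the plexin *Plxnb2* at 299 (276 to 328). The most abundant guidance receptors after *Plxnb2* were *Nrp1* at 217 (193 to 240) and *Robo2* at 212 (174 to 278), followed by the secreted ligand *Sema3f* at 201 (196 to 210). Those 3 ranges overlapped. *Ephb4* was the highest Eph receptor at 140 counts per kb (137 to 144). *Sema3c* stood at 88.9 (71.5 to 98.5), *Robo1* at 77.1 (65.6 to 93.7), *Epha4* at 57.6 (41.9 to 68.5) and *Slit2* at 25 (18.4 to 29.2). At the low end were *Epha3* at 0.927, *Sema3g* at 0.91 and *Sema5b* at 0.45, where a library held a handful of reads. Reads on 13 members could also come from an overlapping gene, with more than 10% of the exon length shared for *Efna3* (14.1%), *Plxna1* (10.7%) and *Efna4* (10.5%).

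**Figure D1:**
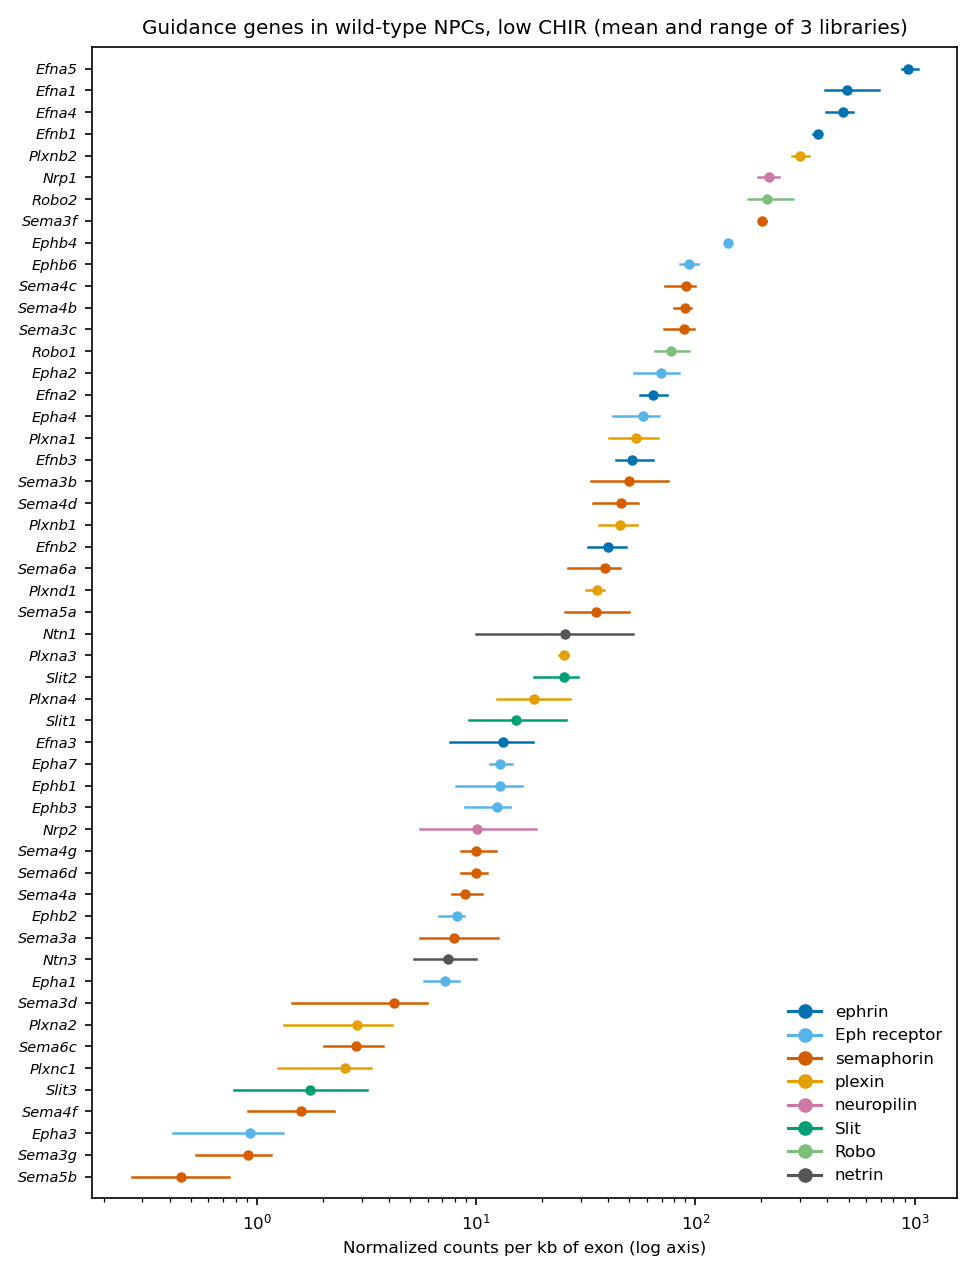
Level of each member in wild-type NPCs in low CHIR, as normalized counts per kb of exon on a log axis, with points at the mean and bars from the lowest to the highest of 3 libraries. *Efna5* is highest at 930 counts per kb and *Sema5b* lowest at 0.45.

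Raising CHIR from low to high tests how these genes respond to the dose that moves NPCs from self-renewal to induction, and 4 sets of control cultures with no library in common were measured. They were not handled alike. The paper describes transfection and sorting for the knockout experiments, with a longer knockout period before the dose for Tcf/Lef than for β-catenin. A member was called where limma's adjusted p, over all genes of a table, was under 0.05 and the log2 fold change was at least 1 in wild-type NPCs or at least 0.5 elsewhere. In wild-type NPCs 7 of 51 members rose (3.99% of all genes tested rose) and 2 fell (3.61% of all genes fell). *Slit2*, *Robo1*, *Sema4f*, *Sema6a*, *Epha1*, *Epha4* and *Efnb2* were higher, and *Plxnd1* and *Efnb3* lower. In the Cas9 GFP control 6 of 50 rose (2.98% of all genes) and 5 fell (4.53%). In the Cre-neg control 4 of 50 rose (2.8%) and 6 fell (5.24%). The GFP control of the Tcf/Lef experiment had the most calls, with 16 of 52 higher (6.98% of all genes) and 5 lower (7.96%). The median log2 fold change of the members was 0.52, -0.01, -0.12 and 0.02 in these 4 comparisons. In bulk samples, fewer cells of a type and less RNA per cell cannot be told apart.

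Across the 4 comparisons the main fit called 29 members at least once, and none higher in a culture and lower in another. Other fits did give opposite calls. DESeq2 called *Sema5a* higher in wild type and lower in the Cas9 GFP and Cre-neg controls. *Sema3c* was called higher in the Cas9 GFP control and lower in the Tcf/Lef control by DESeq2. The replicate block and a fit of only the libraries compared gave the same opposite calls of *Sema3c*. The share of all genes called at least once was not counted, so 29 does not set guidance genes apart from others. *Slit2* and *Epha4* rose in all 4. *Plxnb1* and *Sema5b* rose in 3, and *Robo2* fell in 3. Where called, *Sema5b* and *Sema4f* passed the filter only through high CHIR libraries, so only a rise was open to them. *Efnb2*, *Epha1*, *Robo1*, *Sema4d*, *Sema4f*, *Sema6a* and *Slit1* rose in 2 of the 4 and *Sema3d*, *Ephb6* and *Plxnd1* fell in 2. Called higher once, all in the Tcf/Lef control, were *Efna4*, *Efna5*, *Epha7*, *Ephb1* and *Sema3g*. Called lower once were *Efnb1*, *Nrp2* and *Sema5a* in Cre-neg, *Epha3* and *Sema4g* in the Cas9 control, *Efnb3* in wild type, and *Plxna2*, *Sema3b* and *Sema3c* in the Tcf/Lef control. Not every call rests on all replicates alike. In the Cas9 control *Epha3*, *Ephb6* and *Sema4g* were lost in 3 or 4 of 4 leave-outs (adjusted p up to 0.436), as was *Sema5a* in 3 of 4 in Cre-neg (up to 0.264). In the Tcf/Lef control *Efna4*, *Epha1*, *Ephb6* and *Plxna2* were lost in 4 of 6, *Sema3g* in 3 and *Ephb1* in 2 (up to 0.136). No test of a difference between the 4 responses was run.

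**Figure D2:**
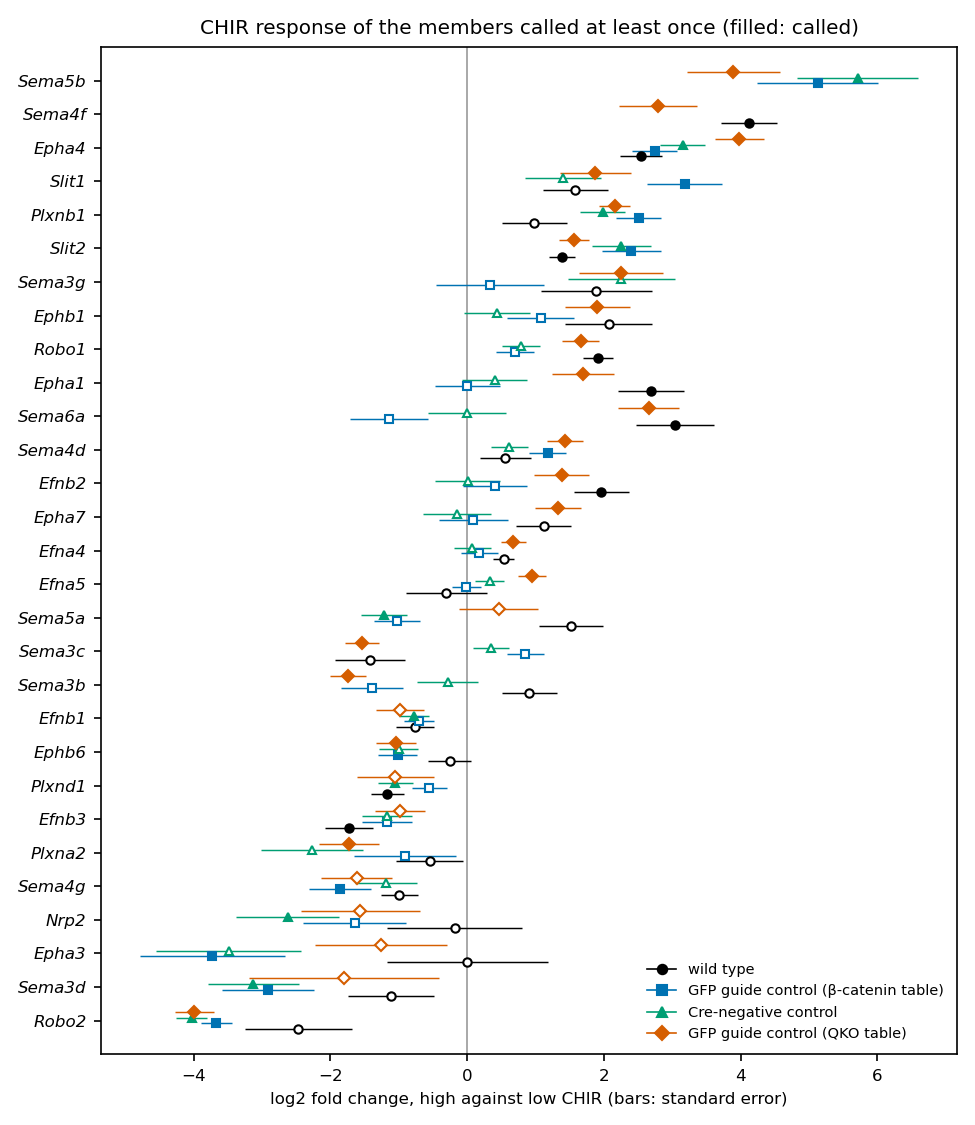
Log2 fold change (high against low CHIR, with its standard error) of the 29 members called at least once, in wild-type NPCs, the Cas9 GFP control, the Cre-neg control and the Tcf/Lef GFP control, with filled points where a member was called. *Epha4* and *Slit2* lie to the right of 0 with filled points in all 4, and *Robo2* lies to the left of 0 in all 4.

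Of the Slit and Robo genes, *Slit2* and *Robo1* rose and *Robo2* fell. *Slit2*, which encodes the secreted ligand (ENSMUSG00000031558, GRCm38 chromosome 5, 47983138 to 48307733, plus strand), held 691, 469 and 744 normalized counts in the 3 wild-type low CHIR libraries and 1867, 1485 and 1571 in high CHIR (log2 fold change 1.39 ± 0.19 SE, adjusted p = 0.00146). The groups did not overlap, and with no CHIR the level stayed near that of low CHIR at 656, 602 and 766. In the Cas9 GFP control *Slit2* went from 214 and 273 to 1277 and 1283 (2.40 ± 0.43, adjusted p = 0.00345). In Cre-neg it went from 234 and 652 to 1738 and 2016 (2.26 ± 0.43, adjusted p = 0.00468), a call lost without Cre-neg low CHIR replicate 1 (1.52, adjusted p = 0.0573). Every high CHIR library of these controls lay above every low CHIR library. The Tcf/Lef control had 740, 647 and 525 in low and 2218, 2241 and 1294 in high CHIR (1.56 ± 0.22, adjusted p = 0.00055).

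*Robo2*, the more abundant of the Slit receptors in low CHIR (ENSMUSG00000052516, chromosome 16, 73891839 to 74411825, minus strand), had the smallest adjusted p of all members in the 3 control responses other than wild type. In the Cas9 GFP control it dropped from 5909 and 6484 to 505 and 464 counts (-3.67 ± 0.23, adjusted p = 8.5e-07). In Cre-neg the counts were 5137 and 8264 in low and 417 and 379 in high CHIR (-4.03 ± 0.23, adjusted p = 3.48e-07). The Tcf/Lef control held 5007, 7952 and 8839 in low and 436, 383 and 521 in high CHIR (-3.99 ± 0.29, adjusted p = 5.7e-06). These groups lay far apart in each table. In wild-type NPCs 2 high CHIR libraries held 273 and 268 counts and replicate 3 held 3467, against 3129, 2960 and 4715 in low CHIR. The difference there did not pass the test (-2.47 ± 0.79, adjusted p = 0.0743), and without that library it was -3.70 (adjusted p = 3.71e-06). With no CHIR the level was 5817, 5135 and 5832 (0.67 ± 0.79 against low CHIR, adjusted p = 0.674).

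*Robo1*, the related receptor on the same chromosome (ENSMUSG00000022883, 72308306 to 73046095, plus strand), went the other way. Wild-type counts were 1547, 1082 and 1192 in low and 5166, 5077 and 4093 in high CHIR (1.92 ± 0.22, adjusted p = 0.000468). In the Tcf/Lef control they were 938, 787 and 687 against 2322, 3944 and 1755 (1.66 ± 0.27, adjusted p = 0.00147). In both experiments the doses did not overlap. The β-catenin table gave smaller differences that did not pass, of 0.70 ± 0.28 with the GFP guide (adjusted p = 0.165) and 0.79 ± 0.28 in Cre-neg (adjusted p = 0.105). *Slit1* is a ligand of the same receptors at lower level. It rose in the Cas9 GFP control from 12.9 and 8.66 to 78.7 and 138 counts (3.18 ± 0.55, adjusted p = 0.0027), a call that narrowly missed without GFP high CHIR replicate 2 (adjusted p = 0.052). The Tcf/Lef control held 29.4, 12.8 and 8.65 in low and 97.2, 46.5 and 41.5 in high CHIR (1.87 ± 0.52, adjusted p = 0.0303), a call that held only without low CHIR replicate 1 or high CHIR replicate 3 (adjusted p up to 0.103). *Slit3*, the remaining ligand, was not called by the main limma fit at any dose and ranged from -0.92 to 2.31 on the log2 scale over the 14 comparisons made here. Its unadjusted p was under 0.05 in 6 of the 14, DESeq2 called it higher in 2 (no CHIR and Cre removal in high CHIR) and edgeR in 0.

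**Figure D3:**
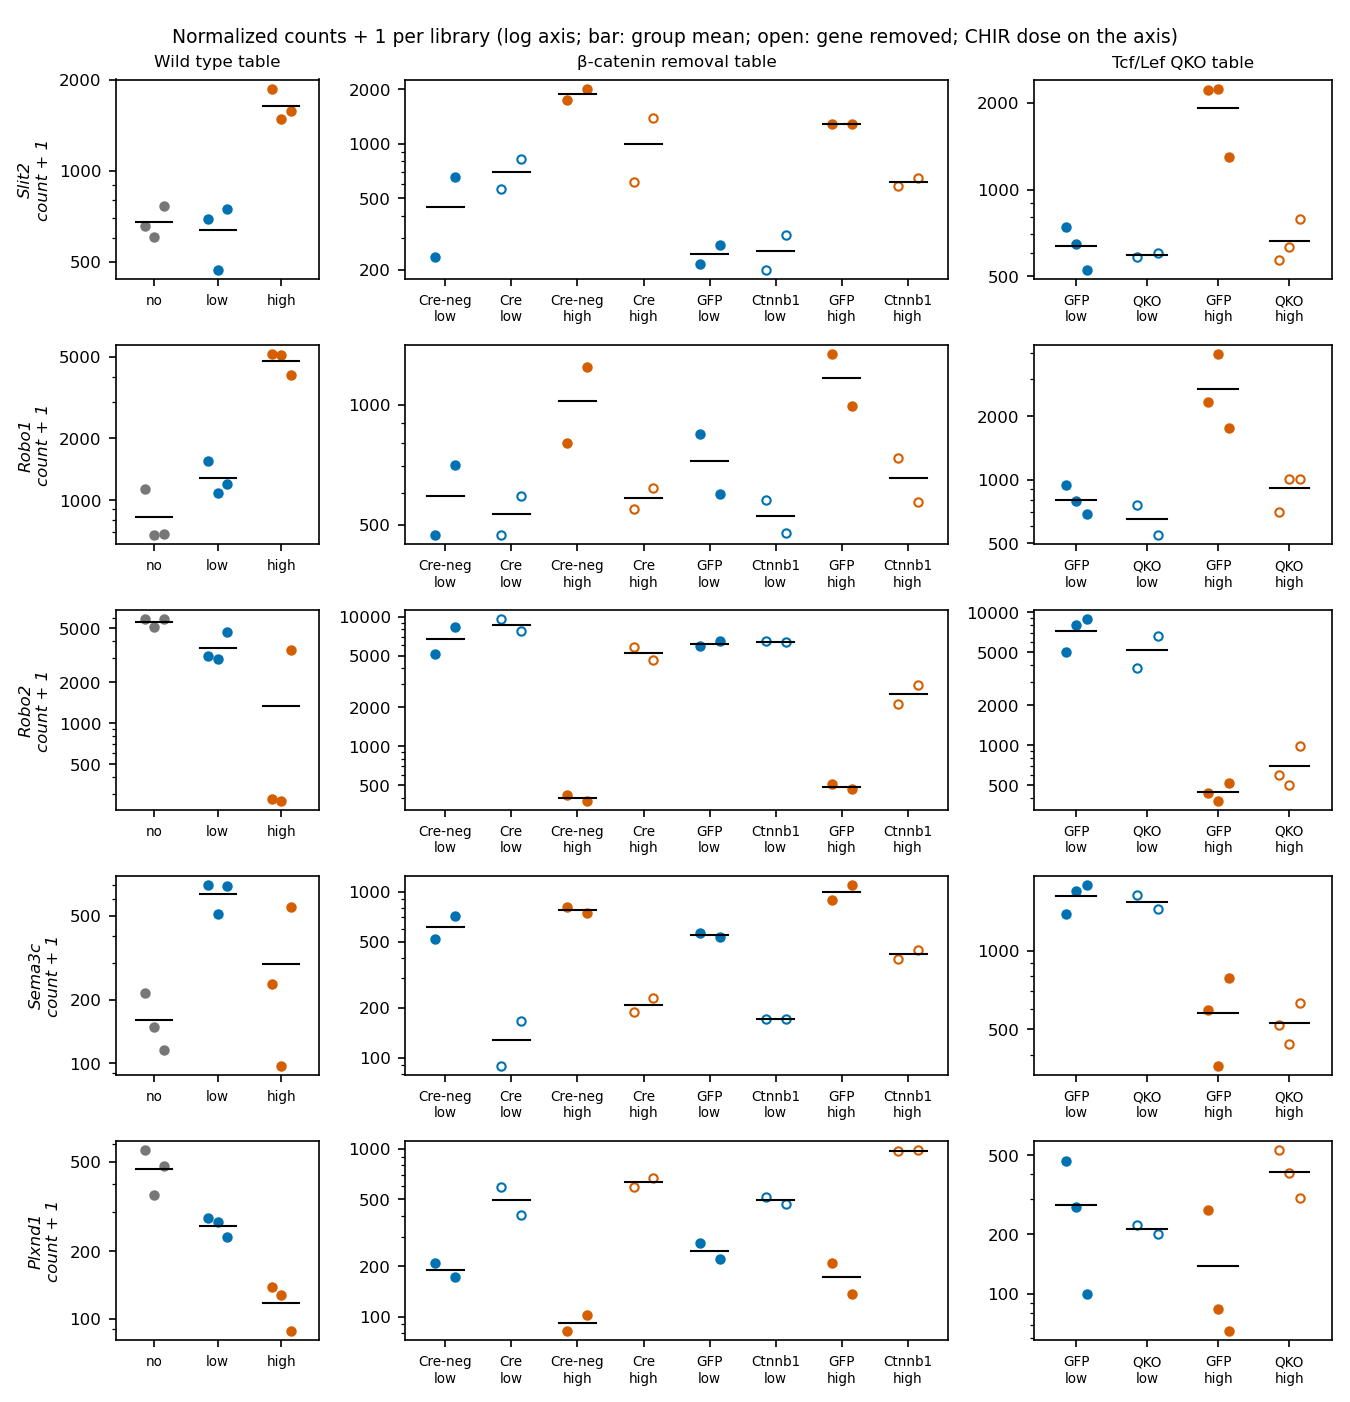
Normalized counts + 1 of *Slit2*, *Robo1*, *Robo2*, *Sema3c* and *Plxnd1* in every library (log axes, rows are genes and columns the wild-type, β-catenin and Tcf/Lef tables), with a bar at each group's mean and open symbols where β-catenin or the Tcf/Lef factors were removed. Wild-type high CHIR holds 2 *Robo2* values of 273 and 268 and another of 3467, and Cre-pos and *Ctnnb1* guide libraries in high CHIR hold 2117 to 5859 where their controls hold 379 to 505.

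Semaphorins of classes 4, 5 and 6 are bound to the membrane. In the tables where *Sema4f* and *Sema5b* were called, both reached the mean of 10 counts needed for testing only through high CHIR libraries, so a rise was the call open to them. *Sema4f*, of class 4, held 11.8, 8.55 and 4.79 counts in wild-type low CHIR and 188, 174 and 110 in high CHIR (4.12 ± 0.41, adjusted p = 0.000193). It also rose in the Tcf/Lef control, by 2.79 (adjusted p = 0.00628). *Sema6a*, another transmembrane ligand, held 397, 393 and 230 in low and 3374, 3286 and 1829 in high CHIR (3.04 ± 0.57, adjusted p = 0.00713). The lowest high CHIR library of *Sema6a* thus stood above the highest low CHIR library by a wide margin. The rise in the Tcf/Lef control was 2.65 (adjusted p = 0.00189), whereas in the β-catenin table the differences were -1.15 ± 0.57 (adjusted p = 0.273) and -0.01 ± 0.57 (adjusted p = 0.997). *Sema5b*, a semaphorin with thrombospondin repeats, was at 1.11 and 2.75 counts in Cre-neg low CHIR and at 144 and 149 in high CHIR (5.71 ± 0.88, adjusted p = 0.00102). With the GFP guide it was listed at 4.97 and 0 in low and 73.4 and 96.7 in high CHIR (5.12 ± 0.88, adjusted p = 0.00262). These *Sema5b* values in low CHIR are a few reads each, so the size of the change depends on the added count of 1. *Sema4d* rose in the Cas9 GFP control (1.18, adjusted p = 0.0173) and the Tcf/Lef control (1.43, adjusted p = 0.00335), the former lost with any of the 4 libraries left out (adjusted p 0.0831 to 0.125). *Sema4g* fell in the Cas9 GFP control (-1.86, adjusted p = 0.0231) and *Sema5a* in Cre-neg (-1.22, adjusted p = 0.0387).

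Class 3 semaphorins, the secreted ones, fell or did not pass, except *Sema3g* in the Tcf/Lef control (2.25, adjusted p = 0.0272). *Sema3d* held 38.9 and 98 counts in Cre-neg low CHIR and 7.36 and 5.19 in high CHIR (-3.13 ± 0.67, adjusted p = 0.0096). With the GFP guide it went from 79.5 and 36.8 to 8.24 and 4.79 (-2.92 ± 0.67, adjusted p = 0.0169). Groups of *Sema3d* did not overlap, but these calls were lost without Cre-neg replicate 2 at either dose (adjusted p up to 0.0664) and without GFP low CHIR replicate 1 or high CHIR replicate 2 (up to 0.157). *Sema3b* held 327, 410 and 336 in low and 106, 93 and 118 in high CHIR of the Tcf/Lef control (-1.75 ± 0.26, adjusted p = 0.000762). *Sema3c*, known for its part in guiding cardiac outflow cells, held 1377, 1688 and 1785 in low and 593, 362 and 783 in high CHIR there (-1.54 ± 0.24, adjusted p = 0.00125). Its wild-type values of 703, 511 and 690 in low and 238, 96.3 and 551 in high CHIR overlapped (-1.43 ± 0.51, adjusted p = 0.11), and without high CHIR replicate 3 the change was -2.05 (adjusted p = 0.00643). In the β-catenin table *Sema3c* was not lower at high CHIR, with 562 and 534 against 887 and 1104 for the GFP guide (0.85 ± 0.27, adjusted p = 0.0747) and 519 and 710 against 803 and 745 in Cre-neg (0.35 ± 0.27, adjusted p = 0.469). *Sema3a*, a repellent for axons and vessels, varied widely between replicates, with 81.5, 173 and 76.6 in wild-type low and 111, 23.7 and 309 in high CHIR (-0.12 ± 0.77, adjusted p = 0.943).

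Of the receptors of semaphorins, *Plxnb1*, the receptor of Sema4d, was the one that rose most often. It went from 202 and 123 to 977 and 834 counts with the GFP guide (2.51 ± 0.33, adjusted p = 0.000326). In Cre-neg it went from 197 and 134 to 776 and 535 (1.99 ± 0.33, adjusted p = 0.00182). The Tcf/Lef control went from 309, 259 and 206 to 1277, 1149 and 1005 (2.16 ± 0.23, adjusted p = 8.19e-05). In none of these 3 did the doses overlap. Wild-type *Plxnb1* was 519, 432 and 349 in low and 1453, 1207 and 344 in high CHIR (0.98 ± 0.47, adjusted p = 0.234), where replicate 3 lay below all low CHIR libraries, and without it the change was 1.63 (adjusted p = 0.00405). *Plxnd1*, a receptor best known from blood vessels, held 279, 269 and 230 in wild-type low and 137, 126 and 86.9 in high CHIR (-1.17 ± 0.24, adjusted p = 0.0111). Without high CHIR replicate 3 its change of -0.97 was short of the fold threshold. In Cre-neg it fell from 208 and 172 to 81 and 102 (-1.05 ± 0.26, adjusted p = 0.0214), a call lost without replicate 1 of either dose (adjusted p up to 0.151). *Nrp1*, a co-receptor of class 3 semaphorins and of VEGF, was not called between high and low CHIR, with 2141, 1884 and 2352 in wild-type low and 5604, 3956 and 2427 in high CHIR (0.83 ± 0.28, adjusted p = 0.0893). *Nrp2*, its paralog, held 222, 71.2 and 65.9 in wild-type low and 86.3, 16.8 and 473 in high CHIR, which overlapped (-0.18 ± 0.99, adjusted p = 0.935). It fell in Cre-neg from 67.7 and 179 to 11 and 25.9 (-2.63 ± 0.75, adjusted p = 0.0473), and that call was lost with any of the 4 libraries left out (adjusted p 0.0562 to 0.25).

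*Epha4*, a receptor that binds ephrins of both classes (ENSMUSG00000026235, chromosome 1, 77367185 to 77515088, minus strand), was the Eph gene called in all 4 responses. In wild-type NPCs it held 552, 502 and 338 counts in low and 2886, 3889 and 1657 in high CHIR (2.54 ± 0.31, adjusted p = 0.000706). The GFP guide libraries went from 183 and 139 to 1226 and 939 (2.75 ± 0.33, adjusted p = 0.000158), and Cre-neg from 70 and 161 to 874 and 1042 (3.15 ± 0.33, adjusted p = 3.99e-05). The Tcf/Lef control held 216, 336 and 398 in low and 3503, 7072 and 4638 in high CHIR (3.98 ± 0.36, adjusted p = 2.32e-05). Low and high CHIR were separate in each of the 4 and the calls held with every library left out in turn. *Epha1* rose in wild-type NPCs from 32.9, 29.4 and 22.8 to 236, 315 and 86 (2.69 ± 0.49, adjusted p = 0.00617). *Epha7*, a receptor of A class ephrins, held 145, 121 and 115 in low and 217, 187 and 510 in high CHIR (1.12 ± 0.40, adjusted p = 0.111). It rose in the Tcf/Lef control from 44, 26.6 and 65.7 to 106, 124 and 96.8 (1.33 ± 0.34, adjusted p = 0.0188), and the call was lost without low CHIR replicate 1 or 2 or high CHIR replicate 2 (adjusted p up to 0.0819). *Ephb2* in wild-type high CHIR missed the fold threshold (0.93 ± 0.20, adjusted p = 0.0145).

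B class ephrins split by gene. *Efnb2*, the ligand of Ephb4 on arteries, held 331, 222 and 266 counts in wild-type low and 1524, 1626 and 469 in high CHIR (1.96 ± 0.40, adjusted p = 0.0116). The groups did not overlap, and the call was lost without low CHIR replicate 2 (adjusted p = 0.0522). In the Tcf/Lef control it rose from 157, 174 and 121 to 531, 619 and 180 (1.38 ± 0.40, adjusted p = 0.0362), a call that 5 of 6 leave-outs lost (adjusted p up to 0.148, GFP high CHIR replicate 3 being the exception). In the β-catenin controls *Efnb2* did not pass, at 0.41 ± 0.47 (adjusted p = 0.671) and 0.01 ± 0.47 (adjusted p = 0.996). *Efnb3* fell in wild-type NPCs from 204, 150 and 139 to 79.5, 51.6 and 27.1 (-1.73 ± 0.35, adjusted p = 0.0113), lost without low CHIR replicate 1 (adjusted p = 0.0531). *Efnb1* was called in Cre-neg alone, where it fell from 584 and 377 to 250 and 299 (-0.78 ± 0.22, adjusted p = 0.0427). Its wild-type values were 1294, 1249 and 1192 in low and 739, 503 and 1062 in high CHIR (-0.76 ± 0.28, adjusted p = 0.114). The Cre-neg call of *Efnb1* held only without low CHIR replicate 2 (adjusted p 0.00933 to 0.314).

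**Figure D4:**
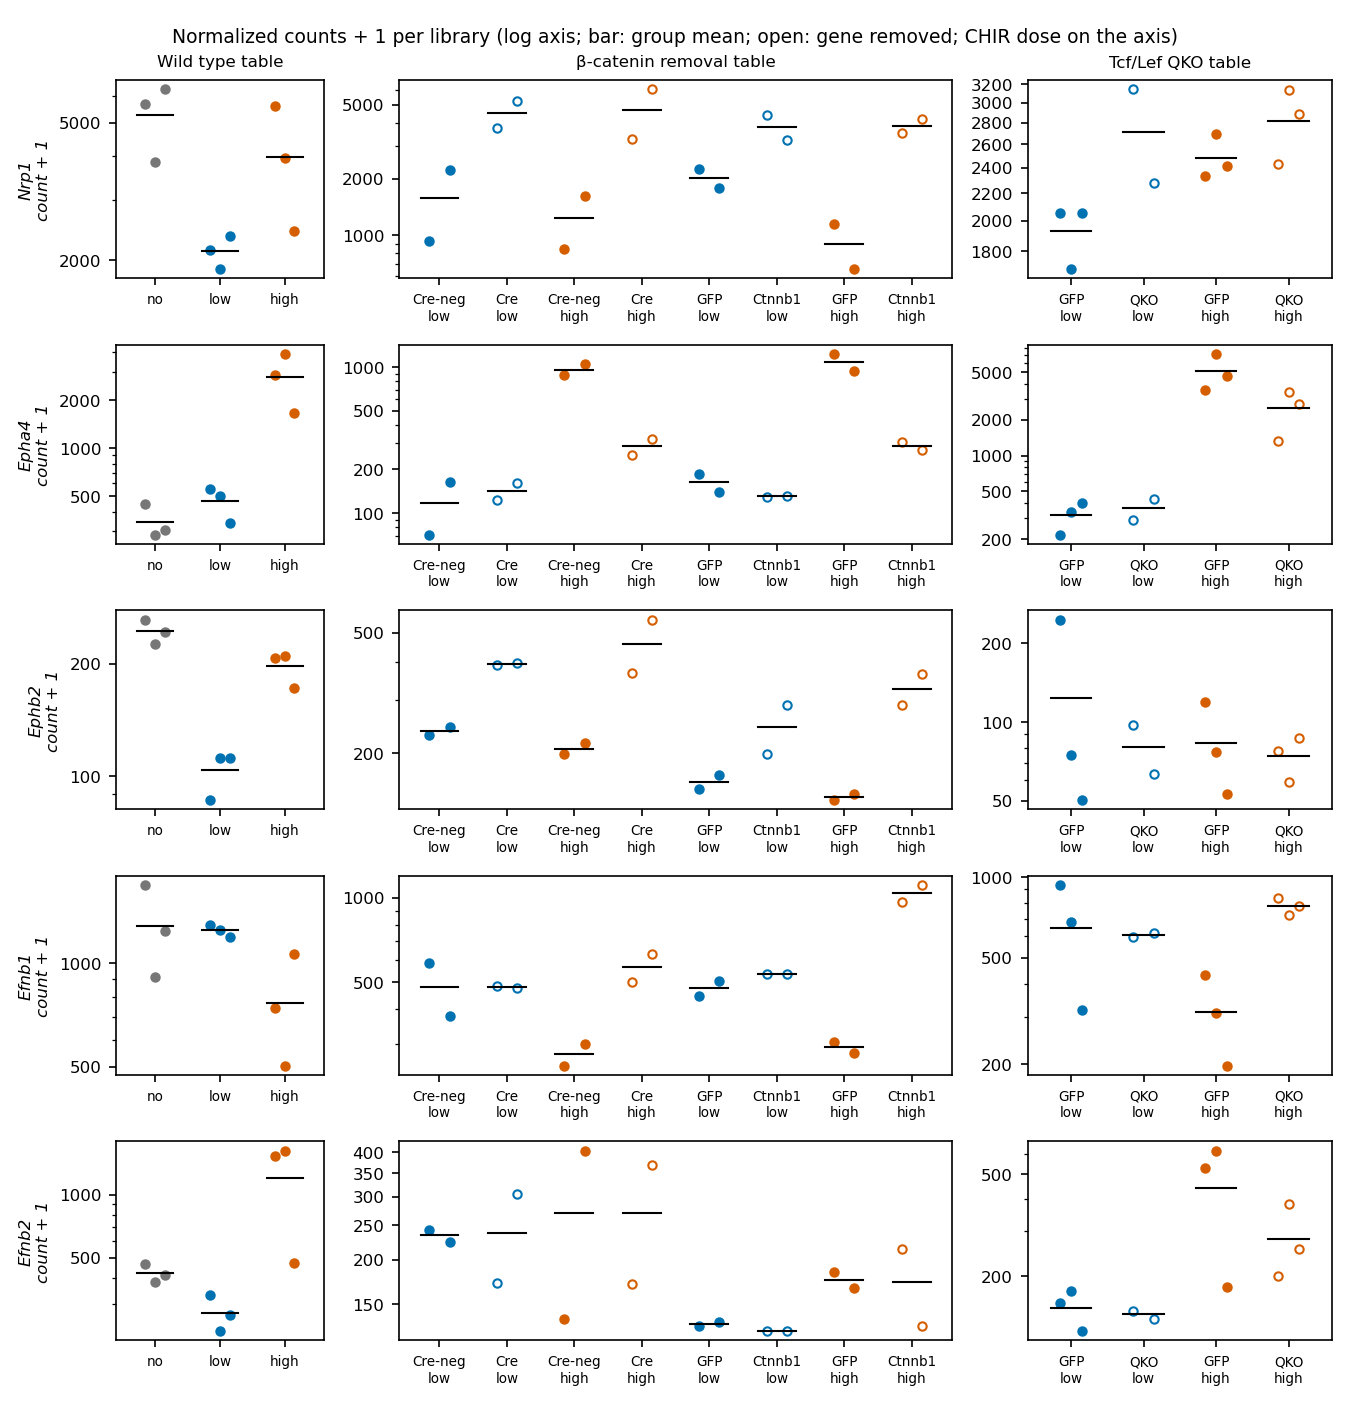
Normalized counts + 1 of *Nrp1*, *Epha4*, *Ephb2*, *Efnb1* and *Efnb2* in every library (log axes, rows are genes and columns the wild-type, β-catenin and Tcf/Lef tables), with a bar at each group's mean and open symbols where β-catenin or the Tcf/Lef factors were removed. *Epha4* is higher in every high CHIR control library than in every low CHIR library of its table, from 1657 to 3889 against 338 to 552 in wild-type NPCs.

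*Ntn1*, the secreted ligand of Dcc and Unc5 receptors, held 326, 62.7 and 92.2 counts in wild-type low and 138, 60 and 21.5 in high CHIR (-1.12 ± 0.69, adjusted p = 0.365). The spread within groups was as wide as the difference between them. Its log2 fold changes over all 14 comparisons ran from -1.61 to 1.33, and those of the other netrin, *Ntn3*, from -1.78 to 2.03. In limma neither netrin was called in any of them, where 2 and 3 of the 14 had an unadjusted p under 0.05, and edgeR and DESeq2 called neither.

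The remaining values of *Nrp1*, *Nrp2*, *Sema3a*, *Ntn1*, *Epha7*, *Efnb1* and *Efnb2* in the 3 other controls complete this picture. *Nrp1* held 2260 and 1779 in low and 1140 and 654 in high CHIR with the GFP guide (-1.22 ± 0.43, adjusted p = 0.116), 931 and 2232 against 839 and 1617 in Cre-neg (-0.31 ± 0.43, adjusted p = 0.725), and 2051, 1691 and 2056 against 2331, 2692 and 2410 in the Tcf/Lef control (0.36 ± 0.15, adjusted p = 0.139). Its sign thus differed between tables, and none of these passed. *Sema3a* overlapped between doses in all 3, as did *Efnb1* in the Tcf/Lef control, with 933, 679 and 318 in low and 430, 309 and 196 in high CHIR (-0.98 ± 0.35, adjusted p = 0.083, or 0.0217 with the replicate block). The block also called *Sema3a* lower there (-0.91, adjusted p = 0.0385). With the GFP guide *Efnb1* held 444 and 503 in low and 304 and 278 in high CHIR (-0.70 ± 0.22, adjusted p = 0.0713). *Ntn1* in Cre-neg went from 40 and 76 to 9.21 and 32.2 without passing (-1.61 ± 0.60, adjusted p = 0.129). *Nrp2* in the Tcf/Lef control held 142, 67.1 and 19.9 in low and 70.1, 12.1 and 7.44 in high CHIR (-1.56 ± 0.87, adjusted p = 0.272), and with the block it was called lower (adjusted p = 0.0115). *Epha7* overlapped in both β-catenin controls, at 0.09 ± 0.50 and -0.15 ± 0.50.

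Withdrawing CHIR altogether gave 6 calls at a fold threshold of 0.5, where high CHIR in wild type gave 9 at a threshold of 1. Against low CHIR, 3 of 51 members were higher with no CHIR (2.37% of all genes) and 3 were lower (2.6%). *Ephb2*, a receptor of B class ephrins, held 85.4, 111 and 111 counts in low CHIR and 261, 225 and 242 with none (1.24 ± 0.20, adjusted p = 0.0104). *Sema3b* went from 200, 159 and 358 to 708, 648 and 1182 (1.85 ± 0.40, adjusted p = 0.0325). *Nrp1* went from 2141, 1884 and 2352 to 5689, 3864 and 6287 (1.29 ± 0.28, adjusted p = 0.0326). For all 3 the groups were separate. Of those lower with no CHIR, *Slit1* held 21.9, 13.2 and 12.3 against 152, 55.1 and 59.9 in low CHIR (-2.31 ± 0.47, adjusted p = 0.0269). *Sema4d*, the ligand of plexin B1, held 234, 93.7 and 76 against 422, 372 and 262 (-1.53 ± 0.38, adjusted p = 0.0461). *Sema4b* held 324, 250 and 321 against 448, 535 and 527 (-0.76 ± 0.18, adjusted p = 0.0417). These 6 calls rest on all libraries. *Ephb2* was lost without no CHIR replicate 3 or low CHIR replicate 1 (adjusted p up to 0.0621), and each of the other 5 in 4 or 5 of 6 leave-outs (adjusted p up to 0.182). *Slit1*, *Sema4b* and *Sema4d* held only without no CHIR replicate 1, *Nrp1* only without no CHIR replicate 2, and *Sema3b* only without no CHIR replicate 1 or low CHIR replicate 3. TMM rescaling also ended the calls of *Sema4b* and *Sema4d*. *Sema3c* held 215, 148 and 115 counts with no CHIR, below all low CHIR libraries (-2.02 ± 0.51, adjusted p = 0.0506), without a call.

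Removal of β-catenin in low CHIR asks what β-catenin does in self-renewing NPCs. Few members moved. With Cre 1 of 50 rose (0.179% of all genes) and 1 fell (0.149%). With Cas9 none rose (0.0358% of all genes) and 1 fell (0.0179%), where 3 members had an unadjusted p under 0.05 and a positive change, and edgeR and DESeq2 called none higher. The median log2 fold changes were 0.15 and 0.13.

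The member that fell by both routes was *Sema3c* (ENSMUSG00000028780, chromosome 5, 17574281 to 17730268, plus strand). It held 519 and 710 counts in Cre-neg and 88 and 165 in Cre-pos (-2.32 ± 0.27, adjusted p = 0.00161). The GFP guide libraries held 562 and 534, and the *Ctnnb1* guide libraries 169 and 170 (-1.69 ± 0.27, adjusted p = 0.0495). Both times the groups lay more than 2-fold apart. The 2 removals share no library, but their tests share 1 estimate of the spread from all 16 libraries. The Cre call stayed with each library left out (adjusted p 0.00126 to 0.0146) but not in a fit of only the 4 libraries compared (0.187). The Cas9 call was lost with any of its 4 libraries left out (adjusted p 0.312 to 0.58), while the fold change stayed between -1.72 and -1.65. Among all genes, 8 were called in the same direction by both routes in low CHIR, 14.5% of the 55 Cre calls and 88.9% of the 9 Cas9 calls. *Plxnd1* rose with Cre from 208 and 172 to 595 and 402 (1.37 ± 0.26, adjusted p = 0.0405). With Cas9 it held 274 and 220 against 517 and 467 (1.00 ± 0.26, adjusted p = 0.684), with groups apart and no call. The Cre call of *Plxnd1* was lost with any of its 4 libraries left out (adjusted p 0.0633 to 0.323). The other members named throughout did not pass. *Nrp1* held 931 and 2232 against 3747 and 5255 with Cre (1.62 ± 0.43, adjusted p = 0.156), *Robo2* 5137 and 8264 against 9551 and 7685 (0.40 ± 0.23, adjusted p = 0.573), and *Slit2* 234 and 652 against 562 and 824 (0.80 ± 0.43, adjusted p = 0.552). The remaining members given for their known roles did not pass at this dose by either route. *Sema3a*, which repels axons, held 110 and 293 against 452 and 669 with Cre (1.61 ± 0.83, adjusted p = 0.522) and 499 and 188 against 532 and 250 with Cas9 (0.25 ± 0.83). *Efnb1* held 584 and 377 against 485 and 475 (0.03 ± 0.22) and 444 and 503 against 533 and 532 (0.17 ± 0.22). *Epha4* held 70 and 161 against 122 and 160 (0.39 ± 0.33) and 183 and 139 against 128 and 129 (-0.30 ± 0.33). Groups of these 3 genes overlapped or lay close together, except *Sema3a* with Cre. The other 4 were *Nrp2*, *Ntn1*, *Epha7* and *Efnb2*, whose log2 fold changes ran from -0.42 (*Epha7*, Cas9) to 0.70 (*Ntn1*, Cas9).

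In high CHIR the same removals touched many more members. With Cre 7 of 50 rose (5.9% of all genes) and 4 fell (2.75%), and with Cas9 7 rose (3.44%) and 2 fell (1.64%). The 7 that rose were the same by both routes, namely *Robo2*, *Plxnd1*, *Plxnb2*, *Nrp1*, *Sema3d*, *Ephb2* and *Efnb1*, and *Epha4* and *Sema3c* fell by both. With Cre *Plxnb1* and *Slit1* fell as well. The 9 shared calls are 81.8% of the Cre calls and 100% of the Cas9 calls, beside 43.1% and 73.3% for all genes (626 shared of 1452 and 854). The member medians were 0.35 and 0.27. Every comparison within this table shares its control libraries with the CHIR response given above.

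*Robo2* had the smallest adjusted p by both routes. In high CHIR it held 417 and 379 counts in Cre-neg and 5859 and 4657 in Cre-pos (3.71 ± 0.23, adjusted p = 3.77e-07). With the GFP guide it held 505 and 464, and with *Ctnnb1* guides 2117 and 2950 (2.37 ± 0.23, adjusted p = 3.97e-05). The Cre-pos libraries lay within the range of *Robo2* seen in low CHIR in this table (5137 to 9551) or just under it, and the Cas9 libraries stood between the low and high CHIR controls. *Slit2*, the ligand, held 1738 and 2016 against 612 and 1377 with Cre (-1.03 ± 0.43, adjusted p = 0.187) and 1277 and 1283 against 583 and 648 with Cas9 (-1.06 ± 0.43, adjusted p = 0.191), without passing the test. *Slit1* fell with Cre from 104 and 95.4 to 11.1 and 19.4 (-2.68 ± 0.55, adjusted p = 0.00736), a call lost without replicate 1 of either group (adjusted p up to 0.068). With Cas9 it held 78.7 and 138 against 35 and 32.6 (-1.60 ± 0.55, adjusted p = 0.119). *Robo1* did not pass by either route, at -0.78 ± 0.28 (adjusted p = 0.111) and -0.83 ± 0.28 (adjusted p = 0.107).

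Among receptors of semaphorins, *Plxnd1* (ENSMUSG00000030123, chromosome 6, 115954811 to 115995005, minus strand) held 81 and 102 counts in Cre-neg and 595 and 669 in Cre-pos (2.78 ± 0.26, adjusted p = 1.56e-05). With Cas9 it held 207 and 135 against 968 and 984 (2.54 ± 0.26, adjusted p = 5.93e-05). Both calls held with each library left out. Since *Plxnd1* marks vessels elsewhere, the 9 endothelium markers were summed. Their counts were 202 to 227 in Cre-neg and 279 to 530 in Cre-pos, and 300 to 322 against 465 to 492 with Cas9. Of these markers *Sox17* was not among the genes of the table and *Tek*, *Tie1*, *Kdr*, *Flt1*, *Cdh5*, *Esam* and *Pecam1* each averaged under 10 counts. *Nrp1* rose from 839 and 1617 to 3278 and 6098 with Cre (1.94 ± 0.43, adjusted p = 0.0117) and from 1140 and 654 to 3509 and 4210 with Cas9 (2.15 ± 0.43, adjusted p = 0.0111). Groups did not overlap, but the Cre call was lost without Cre-neg replicate 1 or Cre-pos replicate 2 (adjusted p up to 0.13) and the Cas9 call without GFP replicate 2 or either *Ctnnb1* guide replicate (up to 0.153). *Plxnb2* rose modestly, from 1231 and 1212 to 1717 and 2216 with Cre (0.68 ± 0.17, adjusted p = 0.0247) and from 1304 and 1419 to 1950 and 2465 with Cas9 (0.69 ± 0.17, adjusted p = 0.0355). Each *Plxnb2* call held in 1 of 4 leave-outs (adjusted p up to 0.331, held without Cre-pos replicate 1 and without *Ctnnb1* guide replicate 1). *Plxnb1* fell with Cre from 776 and 535 to 163 and 240 (-1.70 ± 0.33, adjusted p = 0.00512), lost without replicate 1 of either group (up to 0.0634), and held 977 and 834 against 477 and 400 with Cas9 (-1.05 ± 0.33, adjusted p = 0.0908). *Nrp2* held 11 and 25.9 against 30.3 and 101 with Cre (1.65 ± 0.75, adjusted p = 0.229) and 44.2 and 29.7 against 54.3 and 37 with Cas9 (0.30 ± 0.75, adjusted p = 0.868).

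Of the ligands, *Sema3c* fell from 803 and 745 to 187 and 227 with Cre (-1.90 ± 0.27, adjusted p = 0.000485) and from 887 and 1104 to 391 and 445 with Cas9 (-1.24 ± 0.27, adjusted p = 0.0168). The groups were apart at both doses and by both routes. The Cas9 call held only without GFP replicate 1 (adjusted p 0.0485) and was lost in the other 3 leave-outs (up to 0.187). *Sema3d* rose from 7.36 and 5.19 to 63.6 and 180 with Cre (3.91 ± 0.67, adjusted p = 0.00207) and from 8.24 and 4.79 to 63.5 and 37 with Cas9 (2.76 ± 0.67, adjusted p = 0.0315). The Cas9 call of *Sema3d* was lost with any of the 4 libraries left out (adjusted p 0.0813 to 0.245). *Sema3a* was not called, with 157 and 182 against 155 and 599 with Cre (0.85 ± 0.83, adjusted p = 0.618) and 605 and 103 against 297 and 117 with Cas9 (-0.42 ± 0.83, adjusted p = 0.828). *Ntn1* held 9.21 and 32.2 against 29.3 and 69.2 with Cre (1.33 ± 0.60, adjusted p = 0.229) and 46.5 and 19.1 against 64.5 and 52.8 with Cas9 (0.94 ± 0.60, adjusted p = 0.429). Summed stroma markers were 6337 to 7376 counts in Cre-neg and 8682 to 13819 in Cre-pos. With Cas9 the ranges of 7056 to 21954 and 14496 to 23978 overlapped. Of the 9 stroma markers tested, 0 were called by either route. Their part in the changes of the members was not tested.

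Of the Eph genes and ephrins, *Epha4* fell and *Ephb2* and *Efnb1* rose by both routes. *Epha4* went from 874 and 1042 to 249 and 322 with Cre (-1.75 ± 0.33, adjusted p = 0.00417) and from 1226 and 939 to 306 and 269 with Cas9 (-1.90 ± 0.33, adjusted p = 0.00444). All removal libraries still held more than any Cre-neg or GFP library in low CHIR (70 to 183). The Cas9 call was lost without GFP replicate 1 or *Ctnnb1* guide replicate 2 (adjusted p up to 0.0686). *Ephb2* rose from 198 and 215 to 366 and 552 with Cre (1.12 ± 0.25, adjusted p = 0.0115) and from 139 and 146 to 287 and 364 with Cas9 (1.18 ± 0.25, adjusted p = 0.0153). *Efnb1* (ENSMUSG00000031217, chromosome X, 99136130 to 99148991, plus strand) rose from 250 and 299 to 501 and 630 with Cre (1.04 ± 0.22, adjusted p = 0.00815) and from 304 and 278 to 965 and 1111 with Cas9 (1.83 ± 0.22, adjusted p = 0.000241). For both genes the groups were separate. The Cre calls of *Ephb2* and *Efnb1* were lost without Cre-neg replicate 1 or Cre-pos replicate 2 (adjusted p up to 0.121 and 0.0789), and the Cas9 call of *Ephb2* held only without *Ctnnb1* guide replicate 1 (up to 0.187). A fit of only the 4 libraries compared also ended the Cre calls of *Plxnb2* (0.161), *Ephb2* (0.112), *Efnb1* (0.0922) and *Nrp1* (0.0591). *Efnb2* did not pass, with 135 and 404 against 170 and 368 with Cre (0.10 ± 0.47, adjusted p = 0.938) and 184 and 166 against 214 and 129 with Cas9 (-0.07 ± 0.47, adjusted p = 0.956). *Epha7* was not called either, with 72.7 and 157 against 196 and 204 (Cre) and 112 and 125 against 128 and 180 (Cas9), at 0.90 ± 0.50 (adjusted p = 0.349) and 0.35 ± 0.50 (adjusted p = 0.755).

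**Figure D5:**
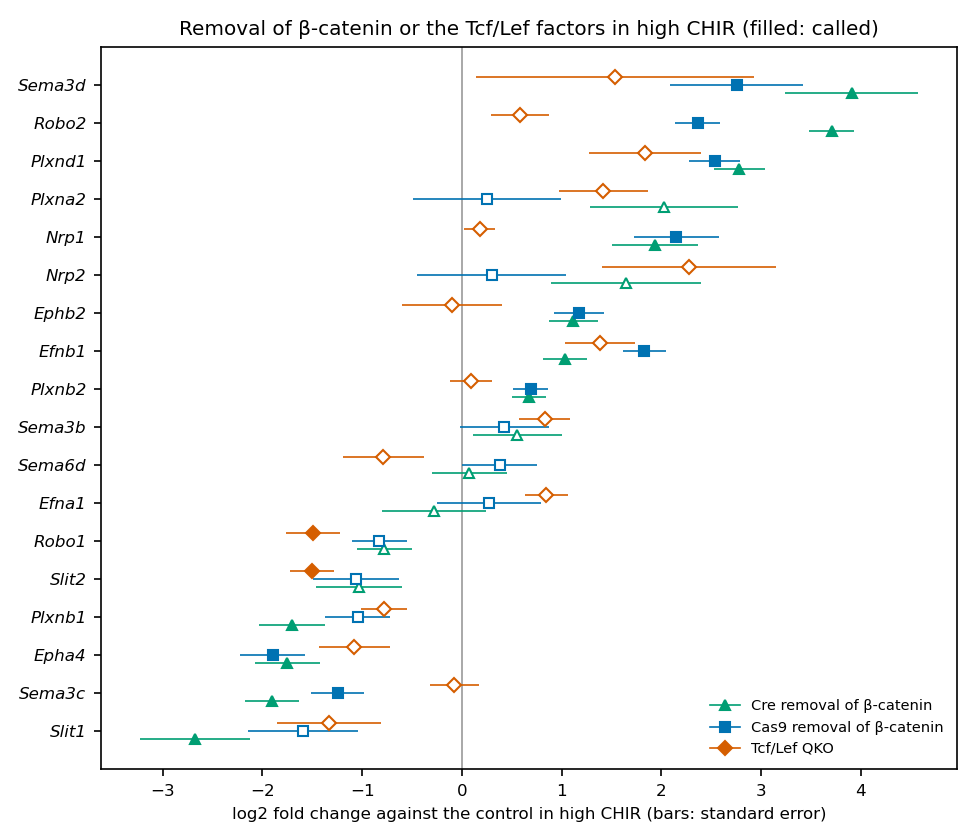
Log2 fold change (knockout against its control in high CHIR, with its standard error) of the 18 members called for β-catenin removal with Cre, with Cas9 or for QKO, the last with or without the replicate block, with filled points where a member was called without the block. *Robo2* is at 3.71 for Cre and 2.37 for Cas9 with filled points, and at 0.58 for QKO with an open point.

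Whether removal acted differently at the 2 doses was tested as an interaction, the effect in high minus the effect in low CHIR. With Cre 2 of 50 members passed (0.995% of all genes) and with Cas9 2 (0.518%). *Robo2* passed by both routes, with 3.32 ± 0.32 for Cre (adjusted p = 0.000187) and 2.31 ± 0.32 for Cas9 (adjusted p = 0.00419), since its level changed little on removal in low CHIR, at 0.40 and 0.05. Both of these calls held in all 8 leave-outs and under all 7 other settings. *Epha4* passed with Cre (-2.14 ± 0.47, adjusted p = 0.0486) and not with Cas9 (-1.59 ± 0.47, adjusted p = 0.298). *Efnb1* passed with Cas9 (1.66 ± 0.31, adjusted p = 0.0263) and not with Cre (1.00 ± 0.31, adjusted p = 0.22). The *Epha4* call was lost in 7 of 8 leave-outs, all but that of Cre-neg low CHIR replicate 2 (adjusted p 0.00467 to 0.19), and the *Efnb1* call in all 8 (0.0695 to 0.181). *Sema3c* showed no detectable difference between the doses, at 0.42 ± 0.38 (adjusted p = 0.831) and 0.44 ± 0.38 (adjusted p = 0.887).

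Removal of all 4 Tcf/Lef factors in low CHIR called no member higher (0.0063% of all genes) or lower (0%). In limma 3 of 52 members had an unadjusted p under 0.05, and edgeR, DESeq2 and the fit with a replicate block called none. *Sema3c*, lower without β-catenin at this dose, held 1377, 1688 and 1785 counts in the control and 1633 and 1435 in QKO (-0.07 ± 0.27, adjusted p = 0.973), with overlapping groups. *Plxnd1* held 468, 273 and 98.6 against 222 and 200 (-0.14 ± 0.63, adjusted p = 0.976). *Nrp1* held 2051, 1691 and 2056 against 3151 and 2275 (0.48 ± 0.17, adjusted p = 0.904), above the control in both QKO libraries. *Robo2* held 5007, 7952 and 8839 against 3778 and 6607 (-0.50 ± 0.32, adjusted p = 0.904). The β-catenin and Tcf/Lef experiments are in separate tables, and their effects were not compared by a test.

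In high CHIR, the main fit, which did not use the pairing of replicates, called *Slit2* and *Robo1* lower in QKO and no other member. With the replicate number as a block, 6 members were higher and 4 lower, as given below. In the main fit none of 52 rose (2.05% of all genes) and 2 fell (0.491%). There 7 members had an unadjusted p under 0.05 and a positive change, and edgeR called 0 and DESeq2 3 higher. *Slit2* held 2218, 2241 and 1294 counts in the control and 568, 633 and 792 in QKO (-1.50 ± 0.22, adjusted p = 0.00376). All QKO values lay in the range that *Slit2* had in low CHIR (525 to 740) or just above it, and the call held with every library left out. *Robo1* held 2322, 3944 and 1755 against 699, 1010 and 1011 (-1.50 ± 0.27, adjusted p = 0.0133), a call lost without QKO replicate 1 (-1.18, adjusted p = 0.0637). In this table the replicate numbers paired the libraries, and with the replicate number as a block 10 members passed in place of 2. Calls over all genes rose too, from 326 to 841 higher and from 78 to 340 lower. In the block fit *Slit2* (-1.50, adjusted p = 0.0015), *Robo1* (-1.50, 0.00271), *Epha4* (-1.08, 0.00284) and *Sema6d* (-0.79, 0.0217) were lower. *Nrp2* (2.28, adjusted p = 0.0044), *Efna1* (0.85, 0.00452), *Plxna2* (1.42, 0.0069), *Efnb1* (1.39, 0.0104), *Plxnd1* (1.84, 0.0109) and *Sema3b* (0.83, 0.0356) were higher. The same block raised the calls of the control's CHIR response from 21 to 26, adding *Nrp2*, *Efnb1*, *Sema3a*, *Plxna4* and *Sema4g* as lower. Over all genes it raised them from 1108 to 1487 higher and from 1264 to 1834 lower.

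The values behind these block calls show pairs that moved in the same direction, from different starting levels and by different amounts. *Plxnd1* held 263, 82.9 and 63.8 counts in control replicates 1 to 3 and 531, 405 and 302 in QKO (1.84 ± 0.56, adjusted p = 0.13 without the block). *Efnb1* held 430, 309 and 196 against 834, 719 and 781 (1.39 ± 0.35, adjusted p = 0.0643). *Nrp2* held 70.1, 12.1 and 7.44 against 136, 122 and 53 (2.28 ± 0.87, adjusted p = 0.244). In each of these the QKO library was above the control of its own number in 3 of 3 pairs. *Epha4* held 3503, 7072 and 4638 against 1323, 3389 and 2723 (-1.08 ± 0.36, adjusted p = 0.17), lower in 3 of 3. All QKO libraries of *Epha4* stayed above every control library in low CHIR (216 to 398). *Robo2* remained low, with 436, 383 and 521 in the control and 595, 501 and 982 in QKO (0.58 ± 0.29, adjusted p = 0.399). *Sema3c* held 593, 362 and 783 against 518, 438 and 632 (-0.08 ± 0.24, adjusted p = 0.921). *Nrp1* held 2331, 2692 and 2410 against 2428, 3132 and 2883 (0.18 ± 0.15, adjusted p = 0.641). *Plxnb1* held 1277, 1149 and 1005 against 461, 735 and 862, without a call (-0.78 ± 0.23, adjusted p = 0.12), and the groups did not overlap. *Efnb2* (531, 619 and 180 against 199, 383 and 255, -0.53 ± 0.40, adjusted p = 0.59), *Epha7* (106, 124 and 96.8 against 56.5, 84.1 and 66.5, -0.66 ± 0.34, adjusted p = 0.406), *Sema3a* (0.28 ± 1.08, adjusted p = 0.936) and *Ntn1* (-0.05 ± 0.92, adjusted p = 0.987) did not pass. Summed stroma markers were 1257 to 4400 in the high CHIR control and 2048 to 10160 in QKO, which overlap, and their part was not tested.

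The interaction of QKO with dose called no member (0.126% of all genes). In limma 12 of 52 had an unadjusted p under 0.05, edgeR called 0, and DESeq2 called 1, *Slit2*. *Slit2* came to -1.41 ± 0.33 (adjusted p = 0.203) and *Robo1* to -1.19 ± 0.41 (adjusted p = 0.608). With the replicate number as a block, *Epha4* passed alone (-1.48, adjusted p = 0.0252). An exact permutation test could not decide single members here, as its smallest two-sided p is 0.1 for 3 libraries against 3 and 0.333 for 2 against 2.

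Over all 14 comparisons the main limma fit called 33 members at least once and 19 not at all. The share of all genes called at least once was not counted, so these 2 counts do not set guidance genes apart from others. The 19 are the ligands *Efna1*, *Efna2*, *Efna3*, *Ntn1*, *Ntn3*, *Sema3a*, *Sema3f*, *Sema4a*, *Sema4c*, *Sema6c*, *Sema6d* and *Slit3* and the receptors *Epha2*, *Ephb3*, *Ephb4*, *Plxna1*, *Plxna3*, *Plxna4* and *Plxnc1*. Other fits called some of them, with a given fit calling a member in 1 or 2 comparisons in the lists that follow. DESeq2 on the recovered reads called *Efna1*, *Efna3*, *Plxna4*, *Sema3f*, *Sema4a*, *Sema4c*, *Sema6d* and *Slit3*, edgeR called *Plxna4*, and limma with the replicate number as a block, in the Tcf/Lef table where the numbers were taken as pairs, called *Efna1*, *Plxna4*, *Sema3a* and *Sema6d*. In the other tables, where numbers were not taken as pairs, the block called *Ntn3*, *Sema3f*, *Sema4a*, *Sema4c*, *Sema6d* and *Slit3* in at least 1 comparison. *Ephb4*, the most abundant Eph receptor in wild-type low CHIR, held 635, 649 and 668 counts in wild-type low and 887, 741 and 576 in high CHIR, and its log2 fold changes over 14 comparisons stayed between -0.61 and 0.27. *Plxna3* stayed between -0.35 and 0.68, and *Efna2* between -0.72 and 0.49. *Plxna4*, an A class plexin, held 377, 175 and 229 counts in low CHIR and 1.12, 12.6 and 465 in high CHIR (-3.38 ± 1.47, adjusted p = 0.188), and without that library it was at -5.53 (adjusted p = 0.000762). *Sema3f* had 1092, 1029 and 1017 in low and 1159, 1062 and 84.1 in high CHIR, and *Efna5* 4163, 3567 and 3516 against 5387, 6013 and 857, with replicate 3 alone far below. Without that library the wild-type calls over all genes rose from 694 to 866 higher and from 628 to 736 lower. Those of members rose from 9 to 18, with 13 higher and 5 lower. *Ephb1*, *Ephb2*, *Nrp1*, *Plxnb1*, *Sema5a* and *Sema6d* joined as higher, *Robo2*, *Sema3c*, *Efnb1* and *Plxna4* joined as lower, and *Plxnd1* was lost.

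Other genes of the guidance pathways were counted from lists of 13 receptors and adhesion partners, 5 further ligands and 35 cytoplasmic effectors. Of 11 receptors and partners tested in wild-type NPCs, *Unc5d* (4.0, adjusted p = 0.00558) and *Nrcam* (2.79, adjusted p = 0.00741) rose in high CHIR and none fell, where 3.99% of all genes rose and 3.61% fell. *Nrcam*, a cell adhesion molecule of axons, fell in the other 3 control responses, at -2.42 (adjusted p = 0.0318), -2.70 (adjusted p = 0.0164) and -1.67 (adjusted p = 0.0112). *Flrt3* is a membrane partner of Unc5 receptors. *Flrt3* fell at high CHIR in the GFP control (-1.68, adjusted p = 0.000264) and Cre-neg (-0.86, adjusted p = 0.0241), rose on removal in high CHIR with Cre (1.63, adjusted p = 0.000285) and Cas9 (2.22, adjusted p = 4.03e-05), and passed both interactions (1.74 and 1.99). *Flrt1* fell at high CHIR in the GFP control (-4.12, adjusted p = 0.00125) and Cre-neg (-3.66, adjusted p = 0.00251). It rose with no CHIR (3.10, adjusted p = 0.0323) and on Cre removal in high CHIR (2.21, adjusted p = 0.0482), without a Cas9 call. In QKO in high CHIR 2 of 10 rose, *L1cam* (2.37, adjusted p = 0.0323) and *Unc5c* (1.76, adjusted p = 0.00281), where 2.05% of all genes rose. Among the ligands *Rgma*, which binds neogenin, fell in wild-type high CHIR (-1.57, adjusted p = 0.039) and the Tcf/Lef control (-1.19, adjusted p = 0.0091) and rose with Cre in high CHIR (1.01, adjusted p = 0.0248). Of 35 effectors tested in wild-type NPCs, 1 rose and 2 fell, which is near the shares of all genes there. In the Tcf/Lef control 1 of 32 rose (6.98% of all genes) and 8 fell (7.96%). In the GFP control 1 of 34 rose (2.98%) and 4 fell (4.53%). In Cre-neg 0 of 34 rose (2.8%) and 4 fell (5.24%). *Sipa1l1*, a Rap GTPase-activating protein tied to Eph signalling, fell in all 4 control responses (log2 fold changes of -1.32 in wild type, -1.99 in the GFP control, -1.97 in Cre-neg and -1.93 in the Tcf/Lef control) and rose on removal of β-catenin in high CHIR with Cre (1.76, adjusted p = 2.89e-05) and Cas9 (1.74, adjusted p = 6.04e-05). *Arhgef12*, an exchange factor that B class plexins bind, rose there by 0.85 (adjusted p = 0.00366) and 0.90 (adjusted p = 0.00445). *Chn2*, another effector, also fell in all 4 control responses (-3.82 in wild type, -1.67 in the GFP control, -2.55 in Cre-neg and -3.10 in the Tcf/Lef control). It rose in QKO in high CHIR (1.82, adjusted p = 0.00289) and passed the QKO interaction (2.50, adjusted p = 0.0335), without a call on removal of β-catenin.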

How the data were processed

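RNA-seq was performed on bulk cultures of NPCs, with SMARTer cDNA and paired-end reads. Per the study's methods and the submitters' processing notes, the authors aligned reads with STAR to combined GRCm38 and GRCh38 genomes, counted unambiguous reads per gene with featureCounts, and divided them by DESeq2 size factors. Their transcript estimates from Salmon are not used here. The strand setting is not given in the sources used here, so reads on overlapping genes (13 of 52 members) cannot be told apart. The deposited values are a signal of normalized counts in 3 tables, 1 for each experiment, normalized separately, so levels were not compared across tables. Whole reads were recovered for 100% of values (tolerance 0.1 reads). The tables held 25760 (wild type), 26863 (β-catenin) and 26472 (Tcf/Lef) genes. Not used were 8 comparison tables with the authors' fold changes and p-values, which also hold 50 columns of per-sample values. The second QKO replicate in low CHIR was not analysed here.

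Groups came from the sample labels. The main test was limma 3.58.1 (R 4.3.3) with an intensity trend on log2(normalized count + 1), with all libraries of a table in 1 fit and Benjamini-Hochberg adjustment over all genes whose table mean reached 10. Fold changes on this scale understate the change of low genes. The fits were tested on simulated data with known changes. There were 14 comparisons. The alternatives were a pseudocount of 5, no filter on low counts, edgeR 4.0.16 and DESeq2 1.42.0 on the recovered reads, TMM rescaling, a replicate block, only the libraries compared, and leaving out each library. Same-numbered libraries of the Tcf/Lef table deviated together (correlations 0.214 to 0.637 in every pair of groups), so their numbers were taken as pairs. In the wild-type table the correlations ran from -0.0156 to 0.272, and those libraries share only a number. The rule asks for 3 or more pairs, and the β-catenin table has 2 replicates a group, so its numbers were not taken as pairs either. Intervals on counts would cover counting error only.

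Members, gene lists and tests were chosen with earlier results of these data known. Every member was named. Values in every library were given for the 6 called members with the smallest adjusted p in each comparison, for members called by both Cre and Cas9 at a dose, and for 12 genes set for their known roles, with other members as counts and ranges. Some fits of the 12 genes that did not pass are given as ranges. Promoter windows came from RefSeq (GRCm38.p6), and gene positions and exon lengths are on GRCm38.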

Additional observations from a re-analysis of the deposited data

Results flagged for a closer look

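The effect of removing β-catenin differed between high and low CHIR for 3 members, by a test of the difference itself (limma's interaction term, adjusted p under 0.05 over all genes). For *Robo2* the effect in high CHIR minus that in low CHIR was 3.32 on the log2 scale with Cre and 2.31 with Cas9. For *Epha4* it was -2.14 with Cre, and for *Efnb1* it was 1.66 with Cas9. With each library of its groups left out in turn, *Robo2* passed in 8 of 8 fits by either route. *Epha4* lost the call in 7 of 8 (adjusted p up to 0.19) and with edgeR, TMM rescaling and a fit of only the libraries compared. *Efnb1* lost it in 8 of 8 (adjusted p 0.0695 to 0.181). The *Epha4* and *Efnb1* differences passed by 1 route each, and whether the routes differ was not tested. In the controls of the same table *Robo2* was at 5137 to 8264 counts in low and 379 to 505 in high CHIR.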

How the results depend on the processing

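The counts of called members depended on the tool more than on scaling. Calls over all genes moved as well. In wild-type high CHIR DESeq2 called 1030 genes higher and 727 lower, against 694 and 628 in the main fit. DESeq2 called 18 members in wild-type high CHIR, 10 with no CHIR, 17 in the Cas9 GFP control, 18 in Cre-neg, 14 for Cas9 removal in high CHIR, 5 for the Cre interaction, 8 for QKO in high CHIR and 1 for the QKO interaction. A fit of only the libraries compared gave 5 in Cre-neg, 0 for removal in low CHIR with Cre and 0 with Cas9, 14 for Cas9 removal in high CHIR and 1 for the Cre interaction. edgeR gave 0 for Cas9 removal in low CHIR and 1 for the Cre interaction, where TMM rescaling also gave 1. With the replicate number as a block, Cas9 removal in high CHIR had 14, QKO in high CHIR 10 and the QKO interaction 1, and the block moved no other count by over 1.5 times. Numbers were taken as pairs in the Tcf/Lef table only. In the β-catenin table, with 2 replicates a group, same-number correlations were 0.334 to 0.518 among the Cre groups and 0.116 to 0.491 among the Cas9 groups, and the block gave 16 calls for Cre removal in high CHIR against 11 without it. Over all genes the block called 1328 higher and 685 lower there, against 990 and 462.

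With each library left out in turn, the calls ran from 8 to 18 in wild-type high CHIR, 0 to 6 with no CHIR, 6 to 8 in the Cas9 GFP control, 5 to 10 in Cre-neg and 12 to 24 in the Tcf/Lef control. Removal gave 1 to 2 (Cre, low CHIR), 0 to 0 (Cas9, low CHIR), 5 to 12 (Cre, high CHIR), 3 to 6 (Cas9, high CHIR), 1 to 3 (Cre interaction) and 1 to 1 (Cas9 interaction). QKO gave 0 to 0 in low CHIR, 1 to 4 in high CHIR and 0 to 1 for the interaction. Calls over all genes moved in these fits too. For no against low CHIR, the fit without no CHIR replicate 3 called 41 higher and 72 lower, against 412 and 453. Of 824 alternative values for 68 gene results, 706 kept direction and call, 103 lost the call, 7 gained it and 8 changed sign. The 8 belong to *Nrp2* and *Sema3a* in wild-type high CHIR, neither called. *Nrp2* was 0.69 with edgeR, 0.68 with DESeq2, 0.38 without low CHIR replicate 1 and 0.99 without high CHIR replicate 2, in a leave-out range from -1.38 to 0.99. *Sema3a* was 0.42 with edgeR, 0.43 with DESeq2, 0.25 without low CHIR replicate 2 and 0.85 without high CHIR replicate 2, in a range from -0.98 to 0.85. The cause of these shifts was not tested. With 2 libraries a group, differences of low genes near the spread between replicates were not detectable.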

Other observations

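Markers of further cell types were summed per library. Ureteric epithelium markers (5 of 7 in the table) summed to 848 to 1159 normalized counts in wild-type low CHIR and 2722 to 3175 in high CHIR, with *Ret* under 10. *Wnt9b* and *Upk3a* were not in the table. Of 4 tested, 2 were called higher, *Hoxb7* (1.22, adjusted p = 0.00454) and *Krt18* (1.95, adjusted p = 0.00606). Endothelium markers summed to 317 to 377 and 997 to 1823, with *Sox17*, *Tie1*, *Cdh5* and *Esam* under 10. Of 5 tested, *Tek* alone was called (6.95, adjusted p = 0.00895), and their median log2 fold change was 0.48. Blood markers summed to 711 to 883 and 232 to 334, and of 4 tested *Lyz2* alone was called (-1.59, adjusted p = 0.000878). In the Tcf/Lef table the blood sum reached 2822 in a high CHIR control library, against 27 to 96 in the QKO groups. Their part in the results for guidance genes was not tested.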
